A study of Mus musculus with 4 samples.

Results

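Colon mitotic cells with secretory commitment are dividing epithelial cells of the distal colon that carry RNA of secretory transcription factors. They were chosen from the 2 distal colon libraries of a single-cell RNA study of mouse intestine. A cell was a member when it reached at least 5 unique molecular identifiers (UMIs, single captured RNA molecules) per 10000 summed over 10 cell cycle genes (Mki67, Top2a, Cenpf, Birc5, Ube2c, Ccnb1, Ccnb2, Cdc20, Cdk1 and Nusap1) and held at least 3 UMIs of Atoh1, Spdef and Creb3l1 together. A barcode entered if it had 500 genes or more and its mitochondrial UMIs did not exceed 20%, which kept 1859 of 1937 in DC replicate 1 (DC 1) and 4917 of 5098 in DC replicate 2 (DC 2). The rule found 1310 members, 382 in DC 1 and 928 in DC 2, among 6776 kept colon cells and 10522 kept cells in all. They were set against 91 colon cells over the same cycle limit with 0 or 1 such factor UMI, 8 in DC 1 and 83 in DC 2. The 2 classes are called committed and uncommitted cycling cells here, by their RNA alone.

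The study compared epithelial cells labelled as goblet cells from the distal colon (DC) with those from small intestinal section 8 (Si8), in 2 libraries each. All mice were RedMUC298trTg, a transgenic strain whose mCherry signal was used for sorting, and were 6 to 8 weeks old, with no treatment named for either region. Live cells were sorted by whether they showed mCherry, and the sources used here do not say which gate each library took or how many mice it pooled. Nothing says that the libraries came from separate animals. The p-values between DC and Si8 therefore measure a difference against the spread between these libraries, which may be technical. Those within the colon set classes of the same library against each other. They measure how far that difference varied between the 2 colon libraries, not the spread between animals. The 4 libraries held 26075303 to 66880457 UMIs, with 12162.5 to 21127 UMIs per barcode at the median. They shared from 1 to 15 cell barcodes per pair of libraries, and DC 1 shared 12 with DC 2, of which 1 was a member.

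The colonic epithelium is renewed by dividing cells in the crypts, whose daughters become absorptive or secretory. Notch signalling sets that choice: a cell that receives it expresses the repressor Hes1, while a cell that escapes it expresses the basic helix-loop-helix factor Atoh1, which is required for secretory cells, and Notch ligands such as Dll1 and Dll4. Spdef acts downstream of Atoh1 in goblet cell maturation, and Creb3l1 is a membrane-bound factor of the endoplasmic reticulum (ER) that is cleaved to enter the nucleus and switches on secretory pathway genes. Goblet cells secrete the gel-forming mucin Muc2 with its partner proteins and need a large ER for it.

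Most cycling colon cells met the factor count. Members made up 95.3% of the 401 cycling cells of DC 1 (exact Clopper-Pearson 95% interval 92.7 to 97.1) and 84.9% of the 1093 of DC 2 (82.6 to 87.0). The same rule took 75.3% of the 158 cycling cells of Si8 1 (67.8 to 81.8) and 68.1% of the 599 of Si8 2 (64.2 to 71.8). Both colon shares lay above both small intestinal ones, and an exact permutation test of 2 against 2 libraries could not have passed a threshold of 0.05 (smallest two-sided p = 0.333). Median UMIs per member were 20514.5 and 18478 in DC 1 and DC 2, against 27790 and 29736 in Si8 1 and Si8 2, so the colon cells reached the fixed factor count at the lower depth. Of all kept cells, members were 20.5% in DC 1 and 18.9% in DC 2. The intervals cover counting error alone. Creb3l1 was the only factor detected in 5.24% and 12.3% of members in DC 1 and DC 2, against 0.84% and 0.98% in Si8 1 and Si8 2. The sorting gate of each library is not known either, so the shares do not measure how often dividing cells commit in each region.

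Committed cells also differed from uncommitted ones in measures that follow depth and quality. Median UMIs per cell were 20514.5 and 18478 in committed cells of DC 1 and DC 2, against 9812 and 12294 in uncommitted cells. Mitochondrial UMIs took a median of 4.37% and 4.40% in committed cells, against 8.44% and 6.01% in uncommitted cells. Scrublet, a caller of droplets with 2 cells, placed 13 (3.40%) and 93 (10.0%) of the members among the likely doublets of DC 1 and DC 2, and none of the uncommitted cells. Likely doublets were 30 of all 1937 barcodes in DC 1 and 208 of 5098 in DC 2. They were 1.35% and 3.27% of non-cycling colon cells with at least 3 factor UMIs. A droplet with a cycling cell and a factor-rich cell could meet both parts of the rule, and how many members are such droplets was not tested. Each comparison below was therefore also run after thinning every cell to 5000 UMIs, within a depth window and without the likely doublets.

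The rule itself selected cells on its 13 genes, whose levels are given as a description. Creb3l1 (chromosome 2, 91982328 to 92024502, GRCm38) stood at 261 and 232 CPM (the gene's UMIs per 1000000 UMIs of the class in a library) in members of DC 1 and DC 2, and at 25.3 and 37.4 CPM in uncommitted cycling cells. Spdef (chromosome 17, 27714352 to 27728955) stood at 76.7 and 66.5 CPM in members, and at 0 and 4.68 CPM in uncommitted cells. Atoh1 (chromosome 6, 64729125 to 64731245) stood at 271 and 112 CPM in members, and at 12.7 and 10.3 CPM in uncommitted cells. Atoh1 was the factor in which the colon libraries differed most, DC 1 being more than double DC 2, while Creb3l1 and Spdef were close between them. The 10 cycle genes summed to 2496 and 1987 CPM in members, against 1861 and 2066 CPM in uncommitted cells and 20.04 and 28.2 CPM in non-cycling colon cells with at least 3 factor UMIs. The proliferation marker Mki67 had UMIs in 97.4% and 97.0% of members.

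**Figure D1:**
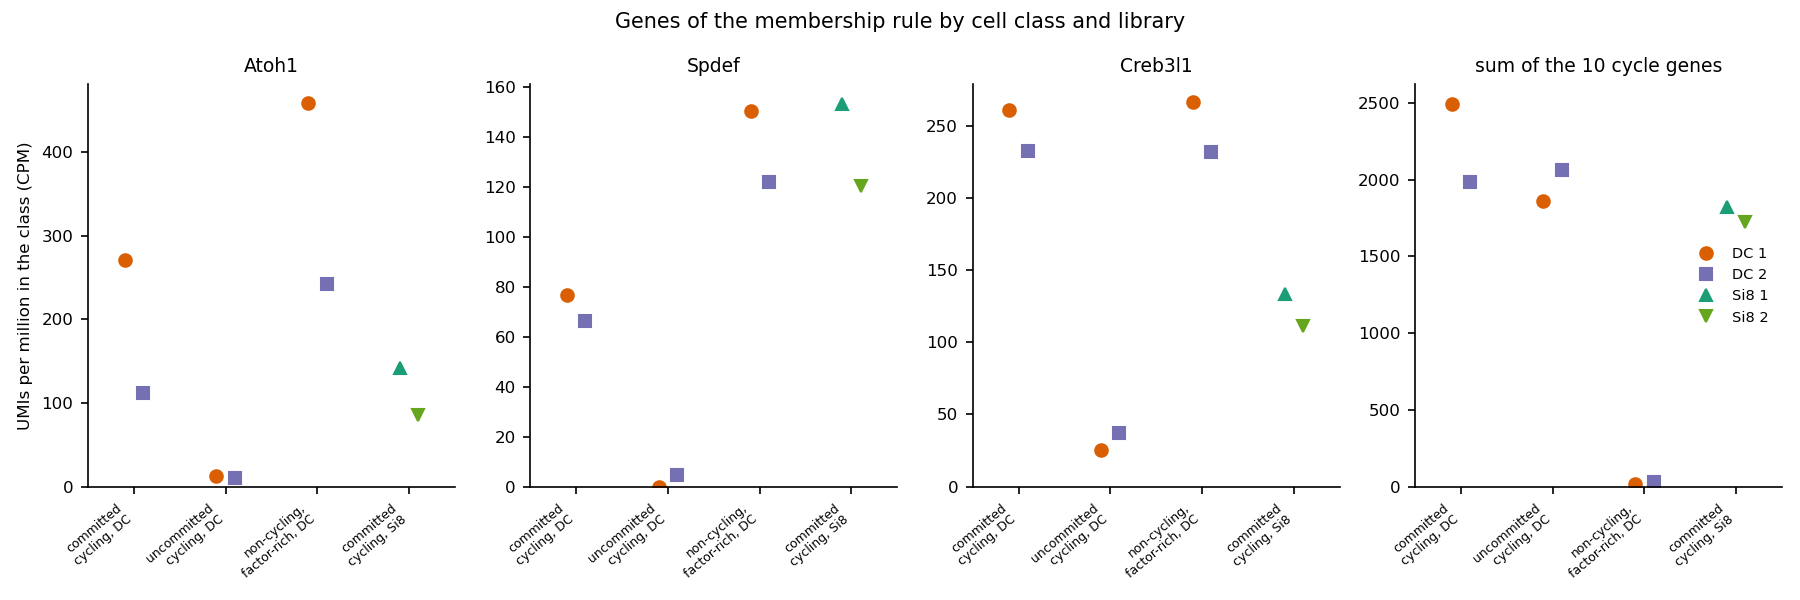
Levels of Atoh1, Spdef, Creb3l1 and the summed 10 cycle genes (CPM, linear axis) in 4 cell classes, 1 point per library. Creb3l1 was near 250 CPM in colon members and in non-cycling factor-rich colon cells alike, whereas Atoh1 and Spdef were higher in the non-cycling class in both libraries.

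Members were not one uniform group in their factors. All 3 factors were detected in 68.1% of members in DC 1 (95% interval 63.1 to 72.7) and 48.1% in DC 2 (44.8 to 51.3), and Atoh1 with Creb3l1 without Spdef in 23.3% and 24.7%. Creb3l1 was the sole factor detected in 5.24% and 12.3% of members, so these cells met the rule with no UMI of Atoh1 or Spdef. Creb3l1 supplied 42.9% and 56.5% of all factor UMIs of members, Atoh1 44.5% and 27.3%, and Spdef 12.6% and 16.2%. In Si8 members the makeup was more even, with Spdef at 35.8% and 38.0%, Creb3l1 at 31.1% and 35.0% and Atoh1 at 33.1% and 27.0%. A member held a median of 12 factor UMIs in DC 1 and 7 in DC 2, with a highest count of 40 and 37. At the limit, 11 and 82 cycling cells with exactly 2 factor UMIs were left out of both classes, with median depths of 15600.0 and 14951.5 UMIs, and 13 and 99 members had exactly 3, at 16162 and 16400.0 UMIs.

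The level of each factor in cycling cells was then read by the UMIs of the other factors, which frees it of its own part in the rule. In colon cycling cells with 0 UMIs of both Atoh1 and Spdef (36 cells in DC 1, 232 in DC 2), Creb3l1 still stood at 183 CPM in each library (95% Poisson intervals 151 to 220 and 170 to 197). With at least 2 UMIs of the other factors it stood at 262 CPM (250.3 to 274) and 233 CPM (225 to 241). In Si8 the same split gave 131 and 109 CPM with at least 2 UMIs, but 15.7 and 16.7 CPM with 0. The colon cycling cells without detected Atoh1 or Spdef thus held Creb3l1 at over 10 times the level of their Si8 counterparts, and no interval overlapped between the regions. These intervals cover counting error alone, not the spread between cells or libraries. Atoh1 in DC 2 was 103 CPM where the other factors had at least 2 UMIs and 55.1 CPM where they had 0 (36.9 to 79.2), and in Si8 133 and 82.0 CPM against 11.0 and 10.0 CPM. In absorptive-rich colon cells, defined by at least 50 UMIs per 10000 of Car1, Aqp8, Slc26a3, Car4 and Cyp2c55 together and expected to lack secretory factors, Creb3l1 stood at 71.9 CPM (35 cells of DC 1, median depth 5924 UMIs) and 36.4 CPM (93 cells of DC 2, 7997 UMIs). Atoh1 stood there at 103 and 33.7 CPM and Spdef at 58.4 and 10.8 CPM. These cells had at least 3 factor UMIs in 17.1% and 3.23% of cases, shares that hold at their own lower depth and give no background at the depth of members.

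**Figure D2:**
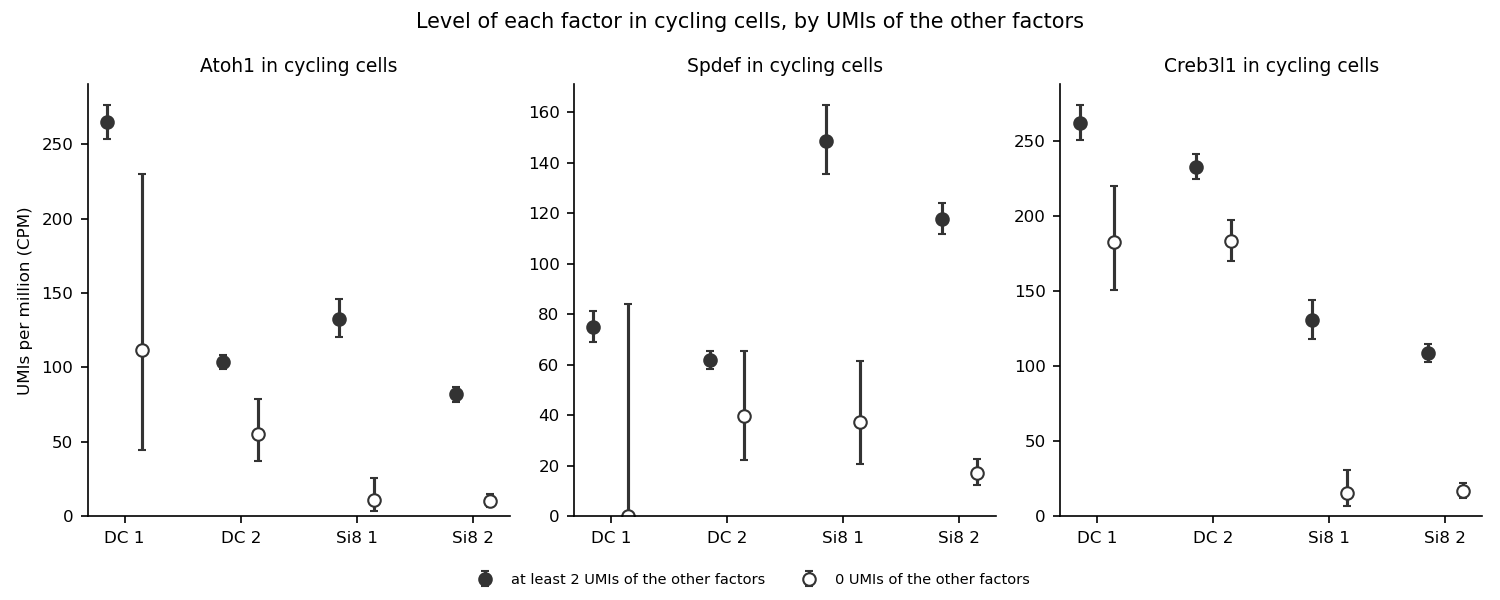
Level of each factor (CPM) in cycling cells of each library with at least 2 UMIs of the other factors (filled) or 0 (open), with 95% Poisson intervals that cover counting error alone. Creb3l1 stays at 183 CPM in colon cells without the other factors, and at 15.7 and 16.7 CPM in Si8 cells.

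Secreted colon products were among the most abundant RNAs of the members. Mptx1, a mucosal pentraxin, had 14359 and 8934 CPM in DC 1 and DC 2. Spink4, a secreted peptide of goblet cells, had 10719.8 and 9586 CPM. Agr2, an ER disulfide isomerase needed to make Muc2, had 6895 and 7759 CPM, and the trefoil peptide Tff3 5419 and 3173 CPM. Reg4, a lectin of deep crypt secretory cells, had 2931 and 2441 CPM. Markers of enteroendocrine cells, tuft cells and leukocytes were rare. Chga and Chgb, granins of enteroendocrine cells, had 30 and 109 UMIs in DC 1, all from 1 and 2 of its 382 members, and 141 and 421 UMIs in DC 2 from 20 and 23 of 928. The enteroendocrine factor Neurog3 had 0 and 2 UMIs. The tuft cell genes Pou2f3, Dclk1 and Trpm5 and the leukocyte genes Ptprc and Cd3e had no UMI in either library, which allows a share of members with a UMI of up to 0.785% in DC 1 and 0.323% in DC 2. The absorptive genes Car1 and Aqp8 stood at 6.73 and 17.7 CPM and at 1.00 and 4.50 CPM. Other genes of the absorptive list were not rare. Guca2a had 890 and 864 CPM in members. Muc3 had 1242 and 1447 CPM in members with 3 to 4 factor UMIs, and 1068 and 1158 CPM with 5 to 9. With 10 or more it had 612 and 780 CPM.

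The first comparison asked how members differed from uncommitted cycling cells in genes that the rule did not use. Genes of secretory cargo and of the ER were among those higher in members: Agr2, Spink4, Tff3, Reg4, the selenoprotein gene Selm, the receptor subunit gene Ramp1 and the ER stress factor Xbp1 all rose. The Notch ligand gene Dll4 rose as well, whereas 9 of 13 mitochondrially encoded genes, the mucus lectin Zg16 and the trypsin inhibitor Spink1 fell. After thinning to 5000 UMIs per cell 7 genes passed, 4 of them higher: Agr2, Spink4, Selm and Tff3. The calls of Reg4, Ramp1, Xbp1, Dll4, Zg16, Spink1 and the mitochondrial genes were lost. The core mucus genes Muc2, Fcgbp and Clca1 did not pass the threshold, nor did any gene of the replication or mitosis lists. By the edgeR quasi-likelihood test with library as a block, 75 of 10522 genes passed an adjusted p of 0.05 (0.713% of genes tested), 46 higher (0.437%) and 29 lower (0.276%) in members. In all 3 comparisons within the colon both classes come from the same droplet libraries, so their p-values stand on 1 residual degree of freedom and lie near counting error.

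Agr2 (chromosome 12, 35992907 to 36004087) had 6895 CPM in committed and 2139 CPM in uncommitted cells of DC 1, and 7759 and 3260 CPM in those of DC 2. Its log2 fold change was 1.49 ± 0.14 (SE; edgeR adjusted p = 3.1e-24). Committed cells were higher in both libraries. Selm (chromosome 11, 3514684 to 3517351), an ER-resident selenoprotein, had 504 CPM in committed and 101 CPM in uncommitted cells of DC 1, and 305 and 93.6 CPM in DC 2 (log2 fold change 1.86 ± 0.24, edgeR adjusted p = 4.0e-12). Spink4 rose by 1.31 ± 0.13 and Tff3 by 1.26 ± 0.15 on the log2 scale. Agr2, Spink4 and Selm passed the threshold in DESeq2 and after thinning to 5000 UMIs, and Tff3 in the thinned cells.

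Among regulators, Xbp1 had 332 CPM in committed and 101 CPM in uncommitted cells of DC 1, and 222 and 119 CPM in DC 2 (log2 fold change 1.09 ± 0.23, edgeR adjusted p = 0.00061). Creb3l4, a relative of Creb3l1, had 62.1 and 56.5 CPM in committed cells of the 2 libraries, against 0 and 26.2 CPM in uncommitted cells (1.26 ± 0.31, adjusted p = 0.0095). Dll4 (chromosome 2, 119325784 to 119335962) had 32.7 and 24.6 CPM in committed cells, against 12.7 and 7.48 CPM in uncommitted cells (1.69 ± 0.44, adjusted p = 0.021). These regulators passed in edgeR, whereas neither DESeq2 nor the thinned fit called any gene of the secretory factor or Notch lists (Dll4 after thinning 0.82, adjusted p = 0.9999). Dll1, the other Notch ligand of secretory cells, had 49.1 and 23.4 CPM against 12.7 and 14.0 CPM and did not pass (adjusted p = 0.62). The Notch target Hes1 had 298 and 170 CPM in committed cells, against 734 and 198 CPM in uncommitted cells (log2 fold change -0.63 ± 0.20, adjusted p = 0.15). The stem cell receptor gene Lgr5 had 7.48 and 5.74 CPM against 50.6 and 13.1 CPM (-1.44 ± 0.53, adjusted p = 0.35), which in DC 1 rests on 8 uncommitted cells.

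By list, 13 of 45 tested mucus and granule genes rose and 2 fell (median log2 fold change 0.82, against 0.03 over all genes tested). In DESeq2 2 of them rose, and after thinning 3 of 38, with none lower in either. Of 44 ER folding genes 6 rose and none fell (median 0.42), among them Fkbp11, an ER prolyl isomerase, by 1.31 ± 0.29, and 1 rose in DESeq2 and 1 after thinning. Of 60 ER translocation and transport genes 1 rose, the KDEL receptor gene Kdelr3 (median 0.36). Of 40 O-glycosylation genes 1 rose, the glycosyltransferase gene Galnt12 (median 0.47). No gene of the 66 on the replication list (median -0.28) or the 95 on the list of mitosis genes outside the rule (median 0.01) passed. Among all genes tested 597 had an unadjusted edgeR p under 0.05. On the replication list 6 genes had a fold above 0, and 34 were lower and 3 higher in both libraries. The rule held both classes to the same limit on mitosis genes, so the absence of calls on the mitosis list says little. Of 20 deep crypt secretory markers 5 rose and 1 fell (median 0.54). The 29 tested stem and Wnt target genes also had no call (median -0.30). Muc2 had 1417 and 1954 CPM in committed cells, against 1063 and 1445 CPM in uncommitted cells (0.46 ± 0.16, edgeR adjusted p = 0.24). Fcgbp had 589 and 472 CPM against 683 and 483 CPM, close to equal in both libraries.

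**Figure D3:**
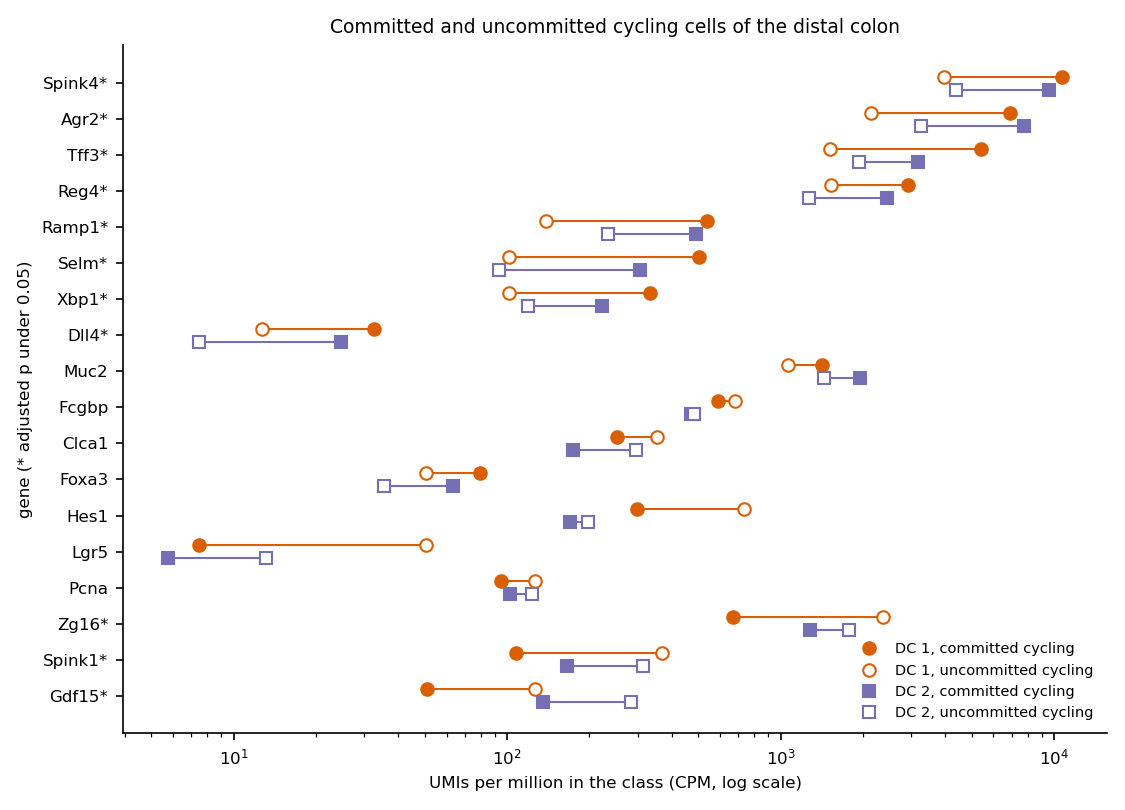
Levels of named genes (CPM, log axis) in committed (filled) and uncommitted (open) cycling colon cells, a line joining the classes of 1 library; asterisks mark an edgeR adjusted p under 0.05. Agr2, Spink4, Tff3, Reg4 and Selm are higher in committed cells of both libraries, while Muc2, Fcgbp and Pcna lie close together.

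Of the 13 mitochondrially encoded genes 9 fell in members, mt-Atp6 to 9804 and 10738 CPM in committed cells, against 23846 and 14323 CPM in uncommitted cells. None of the 13 passed after thinning, and the part of the mitochondrial share in the other calls was not tested. The lowest folds, those of the immune genes Cd74 and H2-Ab1 and the mesenchymal gene Vim, came from 1 uncommitted cell of DC 2 that held 299 of 305 Cd74 UMIs, 218 of 225 H2-Ab1 UMIs and 108 of 113 Vim UMIs. Without cells that had at least 5 UMIs of these genes, 66 genes passed, 49 of them higher. Zg16 had 670 and 1283 CPM in committed cells, against 2367 and 1774 CPM in uncommitted cells (-1.05 ± 0.16, adjusted p = 3.6e-08), and turned to 0.97 (adjusted p = 0.18) with a cycle limit of 10 per 10000. The count of calls rests on 8 uncommitted cells in DC 1 and fell to 16 with that limit, to 7 after thinning and to 8 in DESeq2.

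How members differed among themselves was read over their factor count, a comparison added after the data were seen. Members with at least 10 factor UMIs (244 cells in DC 1, 265 in DC 2) were set against members with 3 to 9 (138 and 663). At high factor load 23 of 45 ER folding genes and 14 of 40 O-glycosylation genes rose, and 17 of 36 absorptive markers, Hes1 and Id1 fell. In edgeR with library as a block, 851 of 10848 genes passed (7.84%), 479 higher (4.42%) and 372 lower (3.43%). Without the block edgeR called none (568 at an unadjusted p under 0.05), and DESeq2 with the block called 103. The high-load cells were deeper, at a median of 21798 and 20882 UMIs against 18861 and 17882 UMIs in low-load cells, 11 of 13 mitochondrial genes were lower in them (median -0.16), and thinning left 237 calls, 215 of them among the 851.

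Of the 45 tested ER folding genes 23 rose with the factor load and none fell (median log2 fold change 0.18, against -0.01 over all genes tested). Of 61 ER translocation and transport genes 31 rose and none fell (median 0.20). After thinning 11 genes of each list rose and 1 folding gene fell. Agr2 had 7668 and 10518 CPM at high load, against 5299 and 6451 CPM at low load (0.63 ± 0.03, edgeR adjusted p = 2.4e-16). Pdia5, a protein disulfide isomerase, had 181 and 144 CPM against 106 and 103 CPM (0.60 ± 0.06). Ostc, a subunit of the oligosaccharyltransferase that adds N-glycans, had 287 and 333 CPM against 197 and 219 CPM (0.59 ± 0.05). The high-load class was the higher one in both libraries for each of these. Of 40 O-glycosylation genes 14 rose and 1 fell (median 0.11). St6galnac4, a sialyltransferase outside that list, had 77.7 and 68.7 CPM against 43.6 and 40.2 CPM (log2 fold change 0.81 ± 0.09, adjusted p = 9.9e-08).

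Promoters of the ER genes that rose are shown because these genes rose together and because many such genes carry the ER stress element, a sequence known to be bound by ATF6 and XBP1 with NF-Y. The motif, CCAAT and CCACG with 9 bases between them, was searched on both strands of the 250 bases before each gene's start in RefSeq sequences (GRCm38.p6). It was found for 6 of the 22 risen ER folding genes with a sequence (27.3%), for 2 of the 16 tested but not called (12.5%), for none of the 24 risen translocation and transport genes with a sequence, and for 12 of 8332 genes tested in all (0.144%). The 6 were Calr, Creld2, Dnajc3, Hsp90b1, Hspa5 and Pdia6. The folding list was chosen to include genes of the ER stress response. Its gap to all genes tested thus says nothing about the factor load. A match is a description of these letters and shows no binding. In the 4 examples, capitals mark the motif: Hspa5 at chr2:34771840-34772089 on the plus strand, Hsp90b1 at chr10:86705445-86705694 on the minus strand with 2 copies, Pdia6 at chr12:17266339-17266588 and Dnajc3 at chr14:118937682-118937931, both on the plus strand.
Hspa5: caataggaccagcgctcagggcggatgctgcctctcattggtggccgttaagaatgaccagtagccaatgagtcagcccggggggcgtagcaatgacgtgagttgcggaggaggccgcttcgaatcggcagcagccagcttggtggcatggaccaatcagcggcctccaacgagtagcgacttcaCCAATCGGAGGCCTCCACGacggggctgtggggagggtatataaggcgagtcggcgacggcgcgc
Hsp90b1: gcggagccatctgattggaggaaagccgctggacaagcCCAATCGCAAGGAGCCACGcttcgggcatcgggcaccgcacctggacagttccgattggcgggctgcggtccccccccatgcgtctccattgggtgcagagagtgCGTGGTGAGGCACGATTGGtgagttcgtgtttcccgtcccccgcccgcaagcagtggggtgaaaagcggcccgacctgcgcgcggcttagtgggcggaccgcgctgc
Pdia6: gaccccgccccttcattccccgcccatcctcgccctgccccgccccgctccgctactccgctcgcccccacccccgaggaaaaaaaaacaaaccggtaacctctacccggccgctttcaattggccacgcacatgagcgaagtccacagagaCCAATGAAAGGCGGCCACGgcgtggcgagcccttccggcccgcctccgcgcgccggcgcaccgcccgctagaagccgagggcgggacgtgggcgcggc
Dnajc3: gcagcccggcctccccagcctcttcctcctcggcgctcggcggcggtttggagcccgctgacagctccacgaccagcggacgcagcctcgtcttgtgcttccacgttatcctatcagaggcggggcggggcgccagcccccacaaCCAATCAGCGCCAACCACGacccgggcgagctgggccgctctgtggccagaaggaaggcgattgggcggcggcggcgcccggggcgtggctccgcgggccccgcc
The folds of these ER genes with the factor load were modest, and they were picked for the motif after their values were seen. Pdia6, a disulfide isomerase, had 339 and 391 CPM at high load, against 283 and 301 CPM at low load (log2 fold change 0.34 ± 0.05, edgeR adjusted p = 3.3e-06). The chaperone gene Hsp90b1 had 760 and 873 CPM against 710 and 740 CPM (0.19 ± 0.04, adjusted p = 0.0012). The chaperone gene Hspa5 had 961 and 921 CPM against 908 and 821 CPM (0.14 ± 0.03, adjusted p = 0.0096). The core letters TGACGTG bound by XBP1 were in 2 of the 22 risen folding genes (9.09%), Hspa5 and Txndc5, and in 2.87% of the genes tested in all. They were in 1 of the 16 folding genes tested but not called (6.25%). Among translocation and transport genes they were in 3 of 24 risen (12.5%) and 2 of 26 not called (7.69%).

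Of the 22 tested Notch genes 4 rose with the factor load and 2 fell (median -0.08), against none and 1 in DESeq2. The ligand gene Dll1 (chromosome 17, 15367354 to 15376872) had 57.2 and 28.7 CPM at high load, against 32.5 and 20.9 CPM at low load (0.62 ± 0.11, adjusted p = 0.00047), and Dll4 had 37.5 and 28.5 CPM against 22.6 and 22.8 CPM (0.47 ± 0.12, adjusted p = 0.013). The target Hes1 (chromosome 16, 30064384 to 30067796) had 236 and 132 CPM at high load, against 426 and 187 CPM at low load (-0.67 ± 0.06, adjusted p = 2.7e-09). Both ligand genes were higher and Hes1 lower at high load in each library. After thinning Hes1 still passed (-0.62), while Dll1 (0.38, adjusted p = 0.53) and Dll4 (0.75, adjusted p = 0.078) did not. The other calls were Psenen (0.23) and Aph1a (0.27), subunits of gamma-secretase, and the Notch target Nrarp (-0.57), all 3 named after their values were seen. Id1, an inhibitor of basic helix-loop-helix factors, had 169 and 153 CPM at high load, against 284 and 226 CPM at low load (-0.63 ± 0.05). Of the 24 tested secretory factor genes 6 rose, among them Creb3l4 and Cdx2, and 2 fell, Id1 and Elf3 (median 0.11).

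Of 36 colonic absorptive markers 17 fell at high factor load, 18 did not pass and 1, Guca2a, rose (median -0.39). After thinning 6 of 28 tested fell, and 5 of 36 in DESeq2. Slc5a8 (chromosome 10, 88885992 to 88929515), a transporter of short-chain fatty acids, had 60.1 and 68.7 CPM at high load, against 125 and 127 CPM at low load (-0.93 ± 0.07, edgeR adjusted p = 1.2e-10). The transmembrane mucin gene Muc3 had 612 and 780 CPM against 1099 and 1236 CPM (-0.74 ± 0.04), and the gasdermin gene Gsdmc4 40.3 and 77.0 CPM against 111 and 124 CPM (-0.93 ± 0.10). The classes were separate in each library, the low-load members being higher. Chgb had 0 and 2.97 CPM at high load, against 41.7 and 33.5 CPM at low load, and 4 of 8 enteroendocrine markers fell (median -1.02), the Chgb UMIs coming from the few cells given above. Of 6 Paneth markers 3 rose and 1 fell, and DESeq2 called 1 higher and 0 lower. In both libraries 2 of the 6 were higher at high load and 2 lower, so the list did not move as one. Lyz1, the gene of the antimicrobial enzyme lysozyme, had 12.6 and 41.5 CPM at high load, against 3.82 and 9.29 CPM at low load (2.12 ± 0.16, edgeR adjusted p = 8.8e-11). Lyz1 was higher at high load in both libraries and also passed after thinning. Among secreted products, Tff3, Spink4 and Reg4, named after their values were seen, had edgeR log2 fold changes of 0.54, 0.36 and 0.25, whereas Sycn, which encodes a granule protein known from the pancreas, fell by 0.83 and Mptx1 by 0.38. The call for Mptx1 turned to a rise of 0.15 when members were split at 5 factor UMIs per 10000 in place of 10 raw UMIs.

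**Figure D4:**
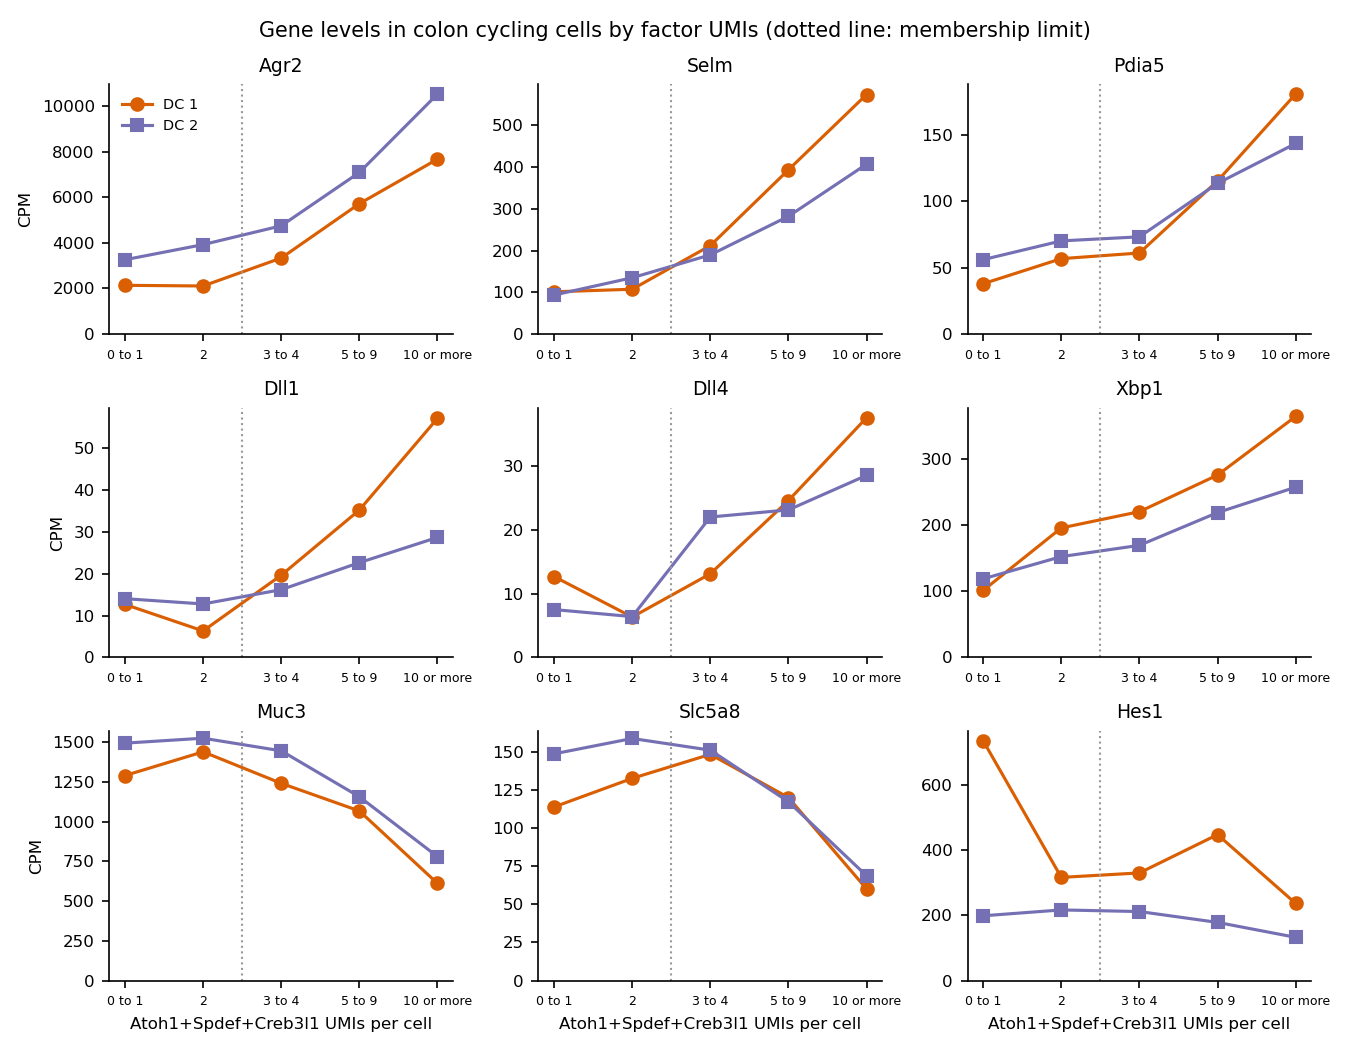
Levels of 9 genes (CPM, linear axes) in cycling colon cells binned by raw factor UMIs, 1 line per library; the dotted line is the membership limit, and the lowest bin of DC 1 holds 8 cells. Agr2, Selm and Pdia5 climb over the member bins in both libraries, and Muc3 and Slc5a8 decline.

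Over finer bins of the members, Selm and Agr2 were higher in each bin than in the one before, in both libraries. Selm stood at 212 and 190 CPM in members with 3 to 4 factor UMIs, at 393 and 282 CPM with 5 to 9, and at 573 and 407 CPM with 10 or more (DC 1 and DC 2). Agr2 stood at 3335 and 4747, at 5716 and 7086, and at 7668 and 10518 CPM over the same bins. Muc2 did not follow this order: it stood at 851 and 1905 CPM with 3 to 4, at 1861 and 2076 CPM with 5 to 9, and at 1288 and 1794 CPM with 10 or more. In both libraries Muc2 was thus highest in the middle bin. Mptx1 was too, at 16566 and 7744 CPM with 3 to 4, at 18045 and 10145 CPM with 5 to 9, and at 12701 and 7754 CPM with 10 or more. Hes1 stood at 330 and 211 CPM with 3 to 4, at 447 and 178 CPM with 5 to 9, and at 236 and 132 CPM with 10 or more, so that it was lower in each bin than in the one before in DC 2 but highest in the middle bin in DC 1. Of the cell cycle lists, 1 of 66 replication genes rose and 1 fell (median -0.09), and 9 of 95 mitosis genes rose with none lower (median 0.02), H2afz, a histone variant gene, by 0.31 ± 0.03. Across members, the cycle and factor UMIs per 10000 had a Spearman rho of 0.09 in DC 1 and -0.09 in DC 2, points that share a cell's depth.

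Members were next set against non-cycling colon cells with the same minimum factor count, 1108 in DC 1 and 2174 in DC 2. These were defined by under 1 cycle UMI per 10000 and at least 3 factor UMIs. The classes were not matched in factor level. Median factor UMIs per 10000 were 5.80 and 3.91 in members of DC 1 and DC 2, against 8.20 and 5.71 in non-cycling cells. In the dividing cells 44 of 45 mucus and granule genes were lower, and 43 of 53 nucleolar genes and the Notch target Hes1 higher. By edgeR with library as a block 6305 of 11941 genes passed (52.8%), 3244 higher (27.2%) and 3061 lower (25.6%) in members, so that a call by itself says little here. With library totals in place of TMM scaling 67.8% of 6376 calls were higher, in place of 51.5%, and the median log2 fold change over all genes moved from 0.00 to 0.14. Without the block 2645 passed. Members were deeper than the non-cycling cells, whose median UMIs were 12833 and 11709. Cell cycle genes differ by the rule and are described only: Hmmr, a spindle protein gene, had 101 and 77.8 CPM in members, against 0.419 and 1.42 CPM in non-cycling cells.

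Of the 45 mucus and granule genes 44 were lower in members and 1 higher (median log2 fold change -1.25, against 0.00 over all genes tested), and 42 were lower after thinning. Zg16 (chromosome 7, 127050156 to 127087328) had 670 and 1283 CPM in members, against 13429.7 and 12930.0 CPM in non-cycling cells (-3.96 ± 0.18, edgeR adjusted p = 4.8e-09). The chloride channel regulator family member Clca1, a secreted mucus protease, had 252 and 174 CPM against 2209 and 1129 CPM (-3.05 ± 0.09), and Fcgbp, a mucus protein that binds Muc2, had 589 and 472 CPM against 2961 and 2162 CPM (-2.40 ± 0.05). For each of these the classes were far apart in both libraries. Muc2 fell by 1.59 ± 0.07 and Tff3 by 1.82 ± 0.03, but Agr2 by 0.92 ± 0.03 and Spink4 by 0.68 ± 0.02, these 4 named after their values were seen. Of 47 ER folding genes 35 were lower and 3 higher (median -0.37), and of 42 O-glycosylation genes 32 lower and 1 higher (median -0.45). With library totals alone the ER translocation and transport genes gave 24 lower and 3 higher of 61, in place of 47 and 1 (median -0.26).

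Regulators followed both directions. Hes1 had 298 and 170 CPM in members, against 150 and 90.8 CPM in non-cycling cells (0.80 ± 0.05, edgeR adjusted p = 5.1e-08). Dll4 had 32.7 and 24.6 CPM against 38.1 and 29.1 CPM (-0.37 ± 0.08, adjusted p = 0.0014). Hes1 was thus higher in the dividing class in both libraries and Dll4 lower. Klf4, a factor of terminal goblet differentiation, had 278 and 244 CPM against 819 and 634 CPM (-1.61 ± 0.05), Id3, a relative of Id1, 75.9 and 93.4 CPM against 301 and 312 CPM (-1.99 ± 0.07), and the HMG-box factor gene Sox4 43.8 and 44.8 CPM against 15.2 and 18.2 CPM (1.25 ± 0.08). Of 27 tested secretory factor genes 18 were lower and 3 higher (median -0.30). Of 29 stem and Wnt target genes 16 were higher and 7 lower (median 0.51), Smoc2, a matricellular protein gene of crypt base cells, at 47.5 and 45.0 CPM against 8.38 and 9.50 CPM (2.20 ± 0.09). Of 53 nucleolar and ribosome assembly genes 43 were higher and 1 lower (median 0.47). The cycle inhibitor gene Cdkn1a had 92.6 and 79.1 CPM against 276 and 216 CPM (-1.65 ± 0.06), while the inhibitor gene Cdkn2c had 27.9 and 27.6 CPM against 2.72 and 4.11 CPM (2.81 ± 0.14). Of 20 deep crypt markers 15 were lower and 5 higher, among these Clca3b with 149 and 171 CPM in members and 19.8 and 35.3 CPM in non-cycling cells (2.38 ± 0.10). Dissociation stress genes were lower in members for 18 of 28 and higher for 4 (median -0.42), and 11 of 13 mitochondrial genes were lower.

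The last comparison set colon members against the 527 cells that met the same rule in Si8, 119 in Si8 1 and 408 in Si8 2. Colon members expressed the posterior homeobox gene Hoxb13 and the channel gene Best2, which had no UMI in Si8 members. They were higher in 40 of 95 mitosis genes, in Foxa2 and in Hes1, and lower in 26 of 48 ER folding genes and 23 of 45 mucus genes. In edgeR 3049 of 11588 genes passed (26.3%), 1648 higher (14.2%) and 1401 lower (12.1%) in DC, and in each the 2 libraries of one region lay above both of the other. With library totals alone 67.9% of 3135 calls were higher, in place of 54.1%, the median over all genes moving from 0.03 to 0.16. Thinning to 5000 UMIs left 1616 calls, 1542 of them shared, and 1738 passed without Si8 replicate 2.

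Hoxb13 (chromosome 11, 96194316 to 96197447), the most posterior gene of its homeobox cluster, had 459 and 448 CPM in colon members and no UMI in Si8 members, at least 2301-fold higher when 3 counts over the group stand for 0. The chloride channel gene Best2 had 125 and 73.3 CPM, again with none in Si8, a difference of at least 455-fold. Among the lower genes, the alpha-defensin gene Defa22 of Paneth cells had no UMI in colon members, against 221 and 205 CPM in Si8 members (at least 1795-fold lower in DC), although defensin genes are close in sequence and their UMIs cannot be placed with certainty. The regional transcription factor gene Gata5 had no UMI in colon members, against 28.3 and 22.4 CPM in Si8. Such genes with no UMI on one side numbered 11 of the 25 tested regional patterning genes, of which 10 were higher and 13 lower in DC. Paneth markers were lower for 14 of 16, and of 21 deep crypt secretory markers 8 were higher and 3 lower. Cd74, the invariant chain of antigen presentation, had 1.99 and 12.1 CPM in colon members, against 806 and 622 CPM in Si8 members. Cells with at least 5 UMIs of Cd74, H2-Ab1 and Vim together were 1 and 19 of the colon members, against 106 and 384 of the Si8 members, so these genes marked most dividing Si8 cells.

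**Figure D5:**
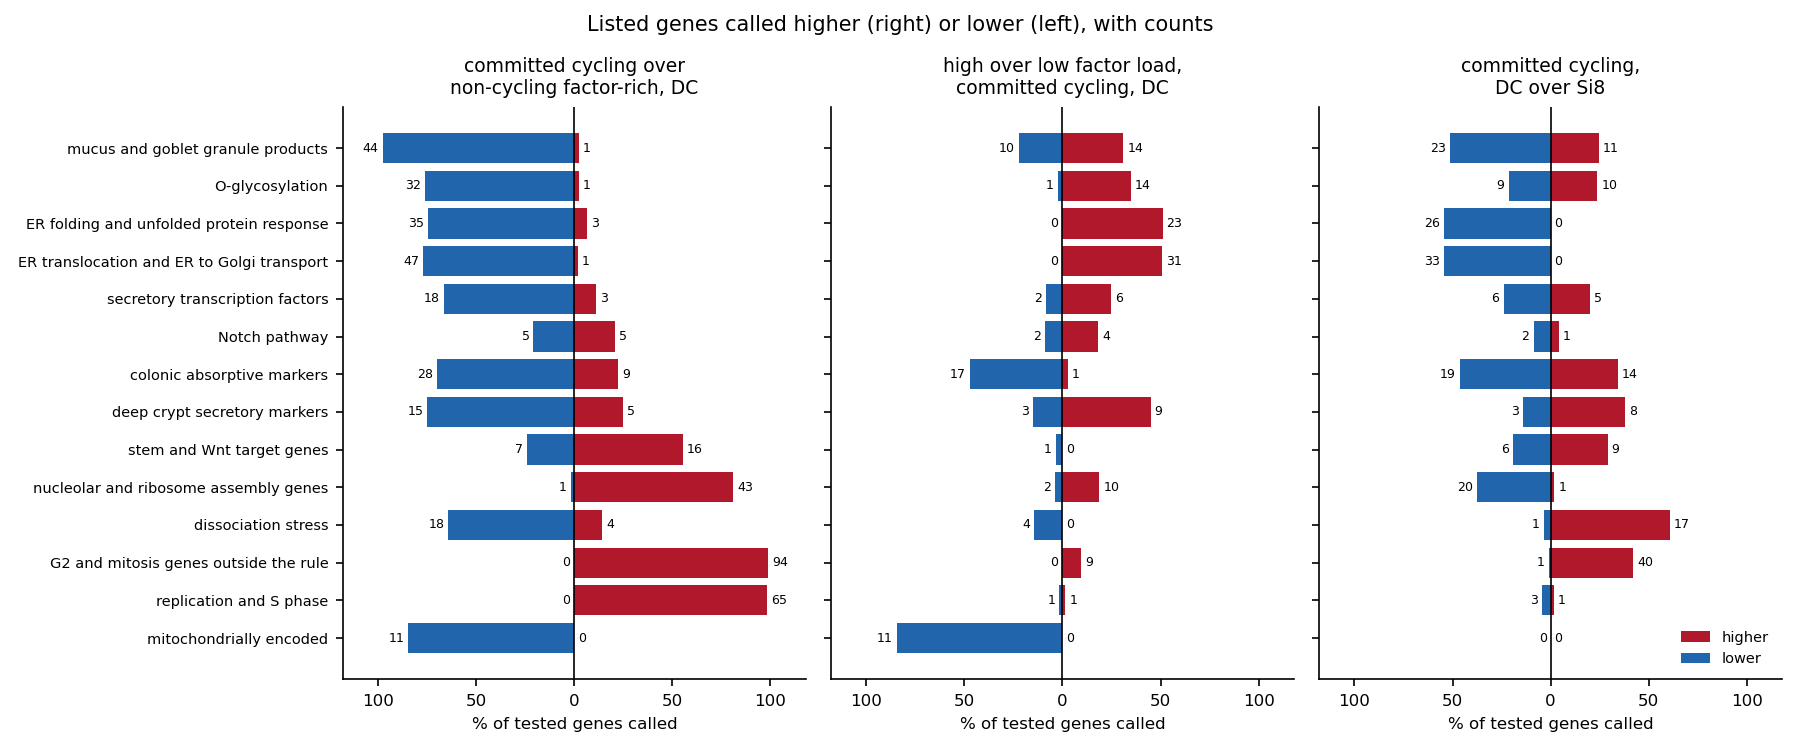
Share of the tested genes of each list called higher (right) or lower (left) at an edgeR adjusted p under 0.05, with counts, for members over non-cycling factor-rich cells, high over low factor load, and DC over Si8 members. The mucus list has 44 of 45 genes lower in members than in non-cycling cells, and the ER lists have 23 and 31 genes higher and none lower at high factor load.

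Of 95 mitosis genes outside the rule 40 were higher in DC and 1 lower (median log2 fold change 0.42, against 0.03 over all genes tested), with 17 higher and none lower after thinning. The cytokinesis protein gene Anln had 48.5 and 35.8 CPM in DC, against 17.6 and 19.2 CPM in Si8 (1.03 ± 0.18, edgeR adjusted p = 0.0024). The condensin subunit gene Ncapg2 had 35.0 and 37.9 CPM in DC, against 14.1 and 14.6 CPM in Si8 (1.21 ± 0.15). The regions did not overlap in either. The replication list had 1 gene higher and 3 lower of 66 (median 0.07). The rule set the same lower limit on the cycle genes in both regions and left their level above it free. The sum of the 10 rule genes was 2496 and 1987 CPM in DC members and 1825 and 1727 CPM in Si8 members, and was not tested.

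Among regulators, Foxa2 had 102 and 74.1 CPM in DC, against 11.0 and 15.5 CPM in Si8 (2.52 ± 0.21, edgeR adjusted p = 2.9e-05). Hes1 had 298 and 170 CPM in DC, against 104 and 85.0 CPM in Si8 (1.18 ± 0.24, adjusted p = 0.0053). Cdx2, an intestinal identity factor, had 15.1 and 20.1 CPM in DC, against 117 and 135 CPM in Si8 (-2.95 ± 0.18). For each of these both colon libraries lay on one side of both Si8 libraries. The Notch ligand Dll4 had 32.7 and 24.6 CPM in DC, against 20.1 and 18.7 CPM in Si8, and Dll1 49.1 and 23.4 CPM against 38.6 and 45.3 CPM. Neither passed (adjusted p = 0.11 and 0.35, both looked up after the data were seen). Of 48 ER folding genes 26 were lower in DC and none higher (median -0.65), and of 61 ER translocation and transport genes 33 lower and none higher (median -0.46), 18 of them with library totals alone. Creld2, an ER disulfide isomerase, had 60.1 and 63.1 CPM in DC, against 184 and 122 CPM in Si8 (-1.43 ± 0.19). Of 45 mucus genes 23 were lower and 11 higher (median -0.74), of 53 nucleolar genes 20 lower and 1 higher (median -0.40), and of 28 dissociation stress genes 17 higher and 1 lower (median 0.65), the nuclear receptor gene Nr4a1 at 735 and 489 CPM in DC against 71.3 and 57.0 CPM in Si8. Dissociation stress, an effect of handling, and depth move with the regions here, and their part in the other lists was not tested beyond the thinned fit.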

How the data were processed

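The authors deposited 4 matrices of UMI counts, not normalized, with a row for each gene and a column for each barcode. Cell Ranger 2.1.1 and the mm10 build are named in the submitters' processing notes, which name no annotation version. Gene positions come from GENCODE M21 (GRCm38), matched on Ensembl identifiers, which held 28341 of 28694 identifiers. Droplet 3' counts are not divided by gene length.

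Scrublet in scanpy 1.11.5 scored doublets 1 library at a time, and the highest scores up to 0.8% per 1000 cells were called likely doublets, which stayed in and were left out as an alternative. UMIs were summed per class and library and tested with the edgeR 4.0.16 quasi-likelihood test in R 4.3.3 (TMM factors; genes kept by filterByExpr at 10 counts; p-values adjusted over all genes tested by Benjamini-Hochberg, threshold 0.05). The 13 genes of the rule were left out. Comparisons within the colon had library as a block, since both classes of a pair came from the same droplet library; that of DC with Si8 had none. The test was checked on simulated counts. SE is that of the log2 fold change, CPM are per library total without TMM factors, shares above 0 carry exact 95% intervals, and a count of 0 is given a limit of 3 counts of the total.

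The members and the 21 gene lists (810 genes, 11 without a row) were chosen with earlier results of these data known. The text names, per comparison, genes from the 10 largest folds in each direction among calls of the same sign in both libraries at 50 CPM or more, and from the 2 largest per list and direction at 20 CPM or more, the rule's genes, and in the first comparison a fixed set of lineage genes. Others are said to be chosen after their values were seen. DESeq2 1.42.0, library totals, no count filter, other class limits, thinning and leaving out libraries were the alternatives. Immune and stromal lists had at most 4 tested genes.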

Additional observations from a re-analysis of the deposited data

How the results depend on the processing

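The number of genes past the threshold between committed and uncommitted cycling cells was 75; it was 8 in DESeq2, 28 with classes set by factor UMIs per 10000, 16 with a cycle limit of 10 per 10000, 7 after thinning to 5000 UMIs, 151 with no count filter and, chosen after seeing the data, 232 with 0 to 2 factor UMIs in the uncommitted class. Leaving out a colon library gave folds there with no test. Between members and non-cycling cells it was 6305, and 3049 in DESeq2 and 2645 with no replicate block. Between DC and Si8 it was 3049, 1616 after thinning, and 1738 to 2930 with each replicate left out in turn. There a replicate block gave 4080 calls; the numbers are shared in the labels by 2 pairs, whose deviations correlated across genes at r = 0.16, and nothing says that they pair the libraries. Between high and low factor load, all settings of which were chosen after seeing the data, it was 851, and 103 in DESeq2, 0 with no replicate block (568 at an unadjusted p under 0.05), 1310 with a split at 5 factor UMIs per 10000 and 237 after thinning. The cause of these moves was not tested.

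Several log2 fold changes between committed and uncommitted cells turned round. With a cycle limit of 10 per 10000 they were 0.57 for H2-Ab1, 0.42 for Cd74, 0.44 for Spink1, 0.97 for Zg16, 0.021 for Cst3, 1.20 for Fcgbp, 1.08 for Clca1 and 0.063 for Car1. Within 10000 to 40000 UMIs they were 0.29 for Fcgbp, 0.16 for Clca1 and 0.16 for Cdkn1b. With classes by factor UMIs per 10000 they were 0.0018 for Fcgbp and 0.26 for Cdkn1a. After thinning they were 0.33 for Fcgbp, 0.58 for Clca1 and 0.31 for Car1. Cdkn1a was 0.31 in DESeq2 and ran from -0.30 to 1.95 with each colon library left out, Cdkn1b 0.042 with no replicate block, and Fcgbp 0.37 with 0 to 2 factor UMIs in the uncommitted class. Between high and low load, Ang4 ran from -1.42 to 1.62 with each colon library left out and Mptx1 0.15 with the split per 10000. No named fold of the other comparisons changed sign under the alternatives run. Depth limits what can be seen of genes with few UMIs, such as Neurog3, which had 0 and 2 UMIs in the members of the colon libraries.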
